A study of Mus musculus with 2 samples.

Results

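The lineages of the mouse gastrula were compared for 10 of the 19 Wnt ligand genes in the feature list: *Wnt2*, *Wnt2b*, *Wnt3*, *Wnt3a*, *Wnt5a*, *Wnt5b*, *Wnt6*, *Wnt7b*, *Wnt8a* and *Wnt11*. They were picked by symbol, and all 10 were found among the 32285 genes counted. A pair of pools of E7 embryos was compared, each measured in 1 droplet library: a control pool, and a *Yap1* cKO pool in which Sox2-Cre deletes a floxed *Yap1* (Sox2cre:Yapflox/flox). The control is Sox2cre:Yapflox/+ by the design text and the single-cell methods, a littermate without Cre by the methods on mice, and WT by its label. Embryos were pooled by genotype, 4 for control and 3 for *Yap1* cKO, and no label tells the embryos of a pool apart. Sox2-Cre acts in the epiblast and its descendants, while extraembryonic ectoderm and visceral endoderm lie outside its domain. By the discussion of the paper, floxed embryos of control and *Yap1* cKO alike have likely lost 1 copy of *Yap1* in extraembryonic tissue, through the father. With 1 library per genotype there is no replicate and no test was made between genotypes. Levels are the UMIs (unique molecular identifiers, 1 per captured transcript) of a gene in all cells of a population together, scaled to the UMIs of all genes in those cells (CPM). The 95% intervals given in parentheses cover counting error only.

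Wnt proteins are secreted lipid-modified signals that bind Frizzled receptors. Some members, such as Wnt3, Wnt3a and Wnt8a, are known for stabilizing beta-catenin, which acts with TCF/LEF factors on target genes. Others, such as Wnt5a, Wnt5b and Wnt11, are best known for cell polarity and movement. In the mouse, *Wnt3* is required for the primitive streak to form and is expressed in the posterior visceral endoderm and posterior epiblast, and *Wnt3a* is needed for later paraxial mesoderm and the tail. YAP1 is a transcriptional coactivator of the Hippo pathway that works through TEAD factors.

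On GRCm38 (GENCODE M21), *Wnt3* is a gene of chromosome 11 from 103774150 to 103817957 on the plus strand, and *Wnt3a* lies on the minus strand of the same chromosome from 59248033 to 59290752. *Wnt2* lies on chromosome 6 from 17988940 to 18030585 on the minus strand, and *Wnt5b* on the minus strand of the same chromosome from 119432531 to 119544347. *Wnt6* lies on chromosome 1 from 74771892 to 74785322 (plus), *Wnt2b* on chromosome 3 from 104945272 to 104961921 (minus) and *Wnt11* on chromosome 7 from 98835112 to 98855195 (plus). *Wnt5a* lies on chromosome 14 from 28504750 to 28527448 (plus) and *Wnt7b* on chromosome 15 from 85535437 to 85582473 (minus).

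Promoter windows of RefSeq (GRCm38.p6, 250 bases before to 50 after a start site) were at hand for 7 of the 10 ligands, in 10 windows. The TCF/LEF core, searched as CTTTGAT or CTTTGAA on both strands, lay in 2 of these 10 windows, against 8.65% of all 32851 windows. The TEAD core GGAATG, also on both strands, lay in 1, against 14.7%. The bases upstream of the annotated start are shown for ligands of different territories described below. These are *Wnt2* of mesoderm, *Wnt3* of streak and mesoderm and *Wnt6* of extraembryonic ectoderm. *Wnt11* is also shown, as the one of the 4 with a match. Capitals mark the TCF/LEF core, which reads as the reverse complement of CTTTGAT in *Wnt11*. All 4 are shown 5′ to 3′ on the strand of the gene.
Wnt2, chr6:18030586-18030695, minus strand: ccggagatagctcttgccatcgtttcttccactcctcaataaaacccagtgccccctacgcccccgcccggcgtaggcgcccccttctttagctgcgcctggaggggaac
Wnt3, chr11:103773925-103774149, plus strand: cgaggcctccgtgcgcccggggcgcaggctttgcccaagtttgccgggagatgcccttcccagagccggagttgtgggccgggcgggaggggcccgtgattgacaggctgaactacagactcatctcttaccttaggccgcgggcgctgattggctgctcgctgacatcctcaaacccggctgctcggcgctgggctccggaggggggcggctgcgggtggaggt
Wnt6, chr1:74771642-74771891, plus strand: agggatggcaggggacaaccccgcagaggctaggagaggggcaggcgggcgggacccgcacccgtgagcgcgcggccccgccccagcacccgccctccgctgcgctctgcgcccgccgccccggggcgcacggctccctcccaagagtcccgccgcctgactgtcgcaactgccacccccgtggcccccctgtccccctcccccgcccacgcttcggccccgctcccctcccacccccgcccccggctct
Wnt11, chr7:98834862-98835111, plus strand: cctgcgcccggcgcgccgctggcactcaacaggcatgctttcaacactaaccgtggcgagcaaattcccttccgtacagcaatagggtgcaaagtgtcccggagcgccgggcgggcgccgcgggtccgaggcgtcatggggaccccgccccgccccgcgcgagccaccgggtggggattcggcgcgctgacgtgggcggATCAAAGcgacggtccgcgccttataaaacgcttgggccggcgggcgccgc
The windows are rich in G and C, at 65.7% for *Wnt2* and *Wnt3*, 76.7% for *Wnt6* and 71.3% for this window of *Wnt11*, where the median of all windows is 52.7%. A match of letters is not a binding site.

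Cells were sorted into 11 populations by marker genes, none of them a Wnt gene, and the names stand for these gates. They held from 15 cells (anterior visceral endoderm of each library) to 206 cells (visceral endoderm of *Yap1* cKO). Most markers were highest in their own gate, but no streak marker was so in both libraries. *T*, *Mixl1* and *Evx1* were highest in the *Mesp1* and *Mesp2* gate called nascent mesoderm, as was *Eomes* in *Yap1* cKO. *Fgf8* was highest in the definitive endoderm gate in control. *Cxcr4*, *Cer1* and *Foxa2* were highest outside the definitive endoderm gate, as was *Sox17* in *Yap1* cKO. Among the other exceptions, *Hba-x* was highest outside the blood gate. In control, *Sox2* was highest in extraembryonic ectoderm and *Pou5f1* in the streak. The libraries held 70573418 and 87937858 UMIs, and 790 control and 860 *Yap1* cKO cells were used. Both libraries shared 2 barcode sequences, both among the control cells used and neither among the *Yap1* cKO cells used. The epiblast held 28.9 CPM of *Yap1* in the control library and 1.19 in the other, visceral endoderm 29.8 and 27.6, and extraembryonic ectoderm 24.8 and 18.8. It was also lower in the 15 anterior visceral endoderm cells of the *Yap1* cKO library, at 12.2 CPM against 44.4. The labels call both samples female, but 51.6% of control and 15.6% of *Yap1* cKO cells carried UMIs of Y-linked genes without *Xist*, so the pools held embryos of both sexes in different proportions.

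The ligands differed in where they were highest, and the territories of all but *Wnt6* and *Wnt7b* overlapped. *Wnt3* ran from *Fgf8*-positive epiblast through the streak into mesoderm. Its levels in node, visceral endoderm and control definitive endoderm were near that of *Fgf8*-positive epiblast. *Wnt8a* and *Wnt3a* had a narrower domain of streak and nascent mesoderm, which for *Wnt8a* took in node and *Fgf8*-positive epiblast. For *Wnt3a* the node reached the level of this domain only in the *Yap1* cKO library. *Wnt2* and *Wnt5a* were high in 3 mesodermal populations, and *Wnt6* and *Wnt7b* were ligands of the extraembryonic ectoderm. *Wnt5b* held 5.22 CPM or more in every embryonic population of both libraries. *Wnt2b* did not exceed 10.4 CPM in any population and *Wnt11* did not exceed 5.92 CPM. The plot of the level of each ligand by population shows these territories side by side in both libraries.

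**Figure D1:**
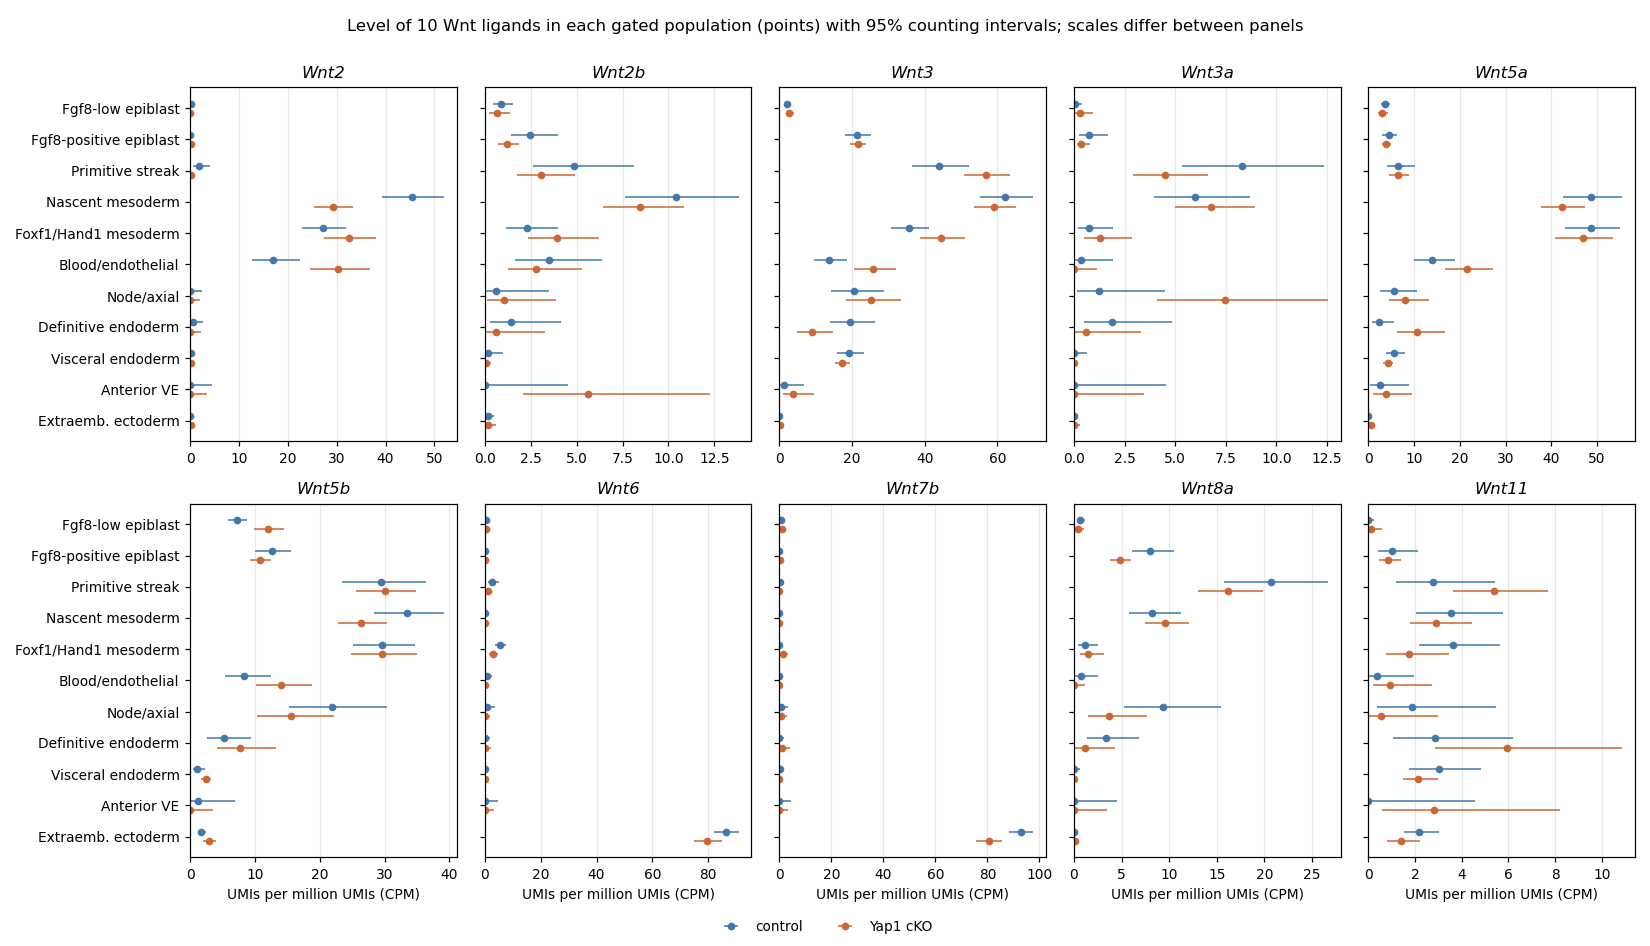
Level of each ligand (horizontal axis, CPM, a separate scale per panel) in the 11 gated populations (vertical axis) of the control (blue) and Yap1 cKO (orange) library; bars are 95% counting intervals. Wnt6 and Wnt7b stand at 79.7 CPM or more in extraembryonic ectoderm and at 5.31 CPM or less elsewhere, while Wnt3 peaks in nascent mesoderm at 62.2 and 59.1 CPM.

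*Wnt3* was highest in nascent mesoderm, at 62.2 (55.1 to 69.9) CPM in control and 59.1 (53.6 to 65.0) in *Yap1* cKO. The primitive streak followed with 43.9 and 56.8 CPM, and the *Foxf1* and *Hand1* mesoderm with 35.7 and 44.5. In the control library the intervals of nascent mesoderm and primitive streak did not overlap, in the *Yap1* cKO library they did. *Fgf8*-positive epiblast held 21.5 and 21.6 CPM, over 7 times the 1.97 and 2.76 CPM of *Fgf8*-low epiblast in each library. Outside the embryo proper, visceral endoderm held 19.2 and 17.3 CPM, with a UMI in 58.1% and 52.9% of its cells. The anterior visceral endoderm, which lies opposite the streak, held 1 UMI in 15 control and 4 UMIs in 15 *Yap1* cKO cells, or 1.23 and 3.75 CPM. Extraembryonic ectoderm had no *Wnt3* UMI in 179 control cells, which by the limit of 3 counts allows up to 1.68% of cells with a UMI. In 97 *Yap1* cKO cells, at a median depth of 106082 UMIs, it had 3 UMIs in 2.06% (0.251 to 7.25) of cells.

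*Wnt8a*, on chromosome 18 from 34542313 to 34548273 (plus strand), and *Wnt3a* are both activators of beta-catenin signaling in the posterior embryo and were highest in and beside the streak. *Wnt8a* was highest in the primitive streak, at 20.7 (15.8 to 26.7) CPM in control and 16.2 (13.0 to 19.9) in *Yap1* cKO, and fell to 8.19 and 9.53 CPM in nascent mesoderm. The node and axial mesendoderm held 9.36 and 3.74 CPM of *Wnt8a*. *Fgf8*-positive epiblast held 8.04 and 4.82 CPM and *Fgf8*-low epiblast 0.612 and 0.424. No *Wnt8a* UMI was counted in the 74 control and 206 *Yap1* cKO visceral endoderm cells, which by the same limit allows up to 4.05% and 1.46% of cells with a UMI. *Wnt3a* stood at 8.29 (5.31 to 12.3) and 4.49 (2.91 to 6.63) CPM in the primitive streak and at 5.97 and 6.77 CPM in nascent mesoderm. In the node and axial mesendoderm it had 2 control and 14 *Yap1* cKO UMIs, or 1.25 and 7.47 CPM, and 1 of the 22 *Yap1* cKO cells gave 35.7% of those 14 UMIs. This was the highest *Wnt3a* level of the *Yap1* cKO library, with an interval that overlapped those of nascent mesoderm and streak. The 3 extraembryonic populations had no *Wnt3a* UMI in either library.

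*Wnt2*, a ligand known from the allantois and developing lung, was nearly confined to the 3 mesodermal populations. Nascent mesoderm held 45.4 (39.4 to 52.0) CPM in control and 29.1 (25.3 to 33.4) in *Yap1* cKO, the *Foxf1* and *Hand1* mesoderm 27.1 and 32.5, and blood and endothelial progenitors 17.03 and 30.2. No other population exceeded 1.73 CPM. The control order of the 3 had intervals apart, and in *Yap1* cKO all 3 overlapped. *Wnt5a* reached 48.7 and 42.3 CPM in nascent mesoderm and 48.8 and 46.9 CPM in the *Foxf1* and *Hand1* mesoderm, with overlapping intervals between these populations in both libraries. Blood and endothelial progenitors held 13.9 and 21.5 CPM. Unlike *Wnt2*, *Wnt5a* was also counted at 2.37 to 10.7 CPM in epiblast, streak, node and the endoderm gates. *Wnt2b* was highest in nascent mesoderm at 10.4 (7.64 to 13.8) and 8.43 (6.44 to 10.8) CPM. Its 5.63 CPM in *Yap1* cKO anterior visceral endoderm rest on 6 UMIs, 83.3% of them in 1 cell.

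*Wnt5b*, a relative of *Wnt5a*, held 29.4 and 29.999 CPM in the primitive streak, 33.4 and 26.4 CPM in nascent mesoderm and 29.6 and 29.6 CPM in the *Foxf1* and *Hand1* mesoderm, and these overlapped within each library. The node held 21.8 and 15.5 CPM. In the epiblast it was already present in *Fgf8*-low cells, at 7.21 (5.90 to 8.71) and 11.98 (9.87 to 14.4) CPM, and in *Fgf8*-positive cells at 12.6 and 10.7 CPM. Visceral endoderm and extraembryonic ectoderm held 1.06 to 2.87 CPM. In the primitive streak *Wnt11* stood at 2.76 (1.19 to 5.45) and 5.39 (3.64 to 7.69) CPM. In control its intervals overlapped between streak, nascent mesoderm, *Foxf1* and *Hand1* mesoderm and visceral endoderm. In *Yap1* cKO the streak lay above the *Foxf1* and *Hand1* mesoderm, at 1.74 (0.753 to 3.44) CPM, and above visceral endoderm, at 2.14 (1.501 to 2.97) CPM. The definitive endoderm gate of *Yap1* cKO held more *Wnt11*, at 5.92 CPM, with an interval that overlapped that of the streak. Extraembryonic ectoderm held 2.19 CPM of *Wnt11* in control and 1.39 in *Yap1* cKO. *Fgf8*-low epiblast had no *Wnt11* UMI in 178 control cells, which by the same limit allows up to 1.69% of cells with a UMI, and 1 UMI in 101 *Yap1* cKO cells.

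*Wnt6* and *Wnt7b* marked the extraembryonic ectoderm, the trophoblast tissue next to the epiblast. *Wnt6* stood there at 86.4 (82.0 to 91.0) CPM in control and 79.7 (74.7 to 84.8) in *Yap1* cKO, with a UMI in 96.6% and 100% of cells. *Wnt7b* stood at 92.97 (88.4 to 97.7) and 80.6 (75.6 to 85.8) CPM, with a UMI in 98.9% and 100% of cells. Both genes were at least 16.3 times as high there as in any other population of the same library. Of the 10 ligands, these 2 had the same highest population in both libraries at 4 or more times the next, as did 2.5% of the 14266 genes with at least 100 UMIs. In the epiblast, 0.760% of control and 1.54% of *Yap1* cKO cells had a *Wnt6* UMI, and 2.28% and 2.31% had a *Wnt7b* UMI. The next level of *Wnt6* was in the *Foxf1* and *Hand1* mesoderm, at 5.31 (3.53 to 7.68) and 2.83 (1.51 to 4.84) CPM. In control 19.4% of its cells had a *Wnt6* UMI, while in *Yap1* cKO 1 cell gave 76.9% of the 13 UMIs.

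Single cells often held several ligands. After each cell was thinned to 38000 UMIs, nascent mesoderm cells held a UMI of 3.46 (control) and 3.38 (*Yap1* cKO) of the 10 ligands on average, the *Foxf1* and *Hand1* mesoderm 2.86 and 2.95, and the primitive streak 2.74 and 2.56. *Fgf8*-low epiblast held 0.434 and 0.608, and 62.3% and 49.5% of its cells had none. In nascent mesoderm some pairs of ligands were found together more or less often than their single shares would give, and others, such as *Wnt3* with *Wnt5a* in control (33 cells, 32.7 from the single shares), were not. Among control cells with *Wnt2*, 79.4% also had *Wnt5a*, against 47.8% of those without, and in *Yap1* cKO these shares were 82.1% and 47.4%. The reverse held for *Wnt3a*, found in 8.82% of control cells with *Wnt2* and in 30.4% of those without, and in 7.69% and 39.5% in *Yap1* cKO. Nascent mesoderm cells with *Wnt2* thus tended to have *Wnt5a* and to lack *Wnt3a* in both libraries. These shares are descriptions of 57 and 77 thinned cells and were not tested.

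**Figure D2:**
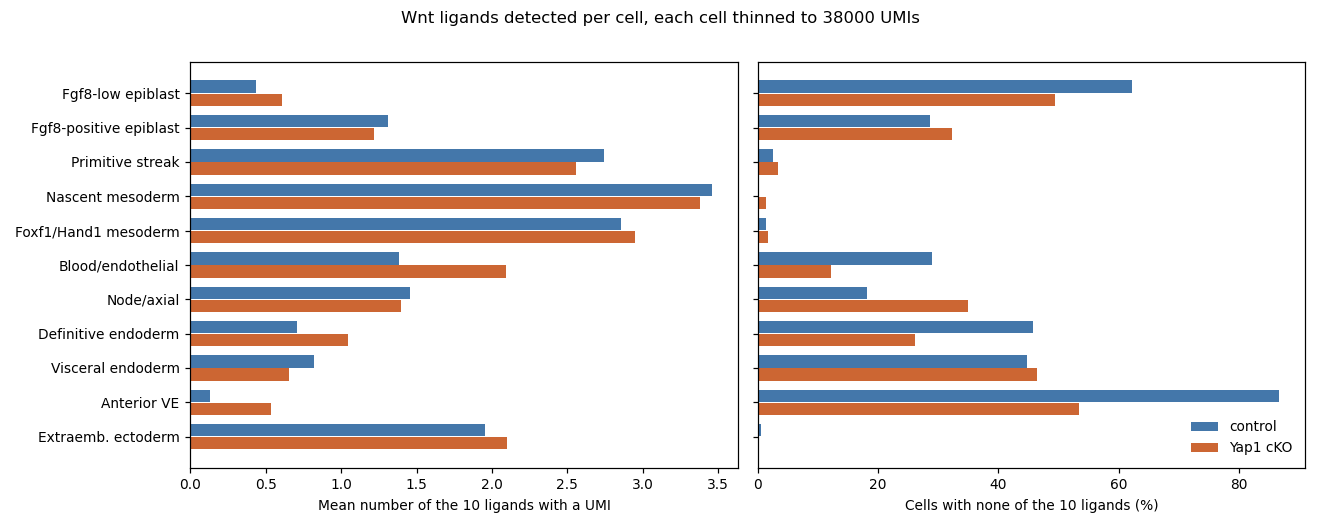
Mean number of the 10 ligands with a UMI per cell (left) and percent of cells with none (right) by population, in control (blue) and Yap1 cKO (orange), after thinning each cell to 38000 UMIs. Nascent mesoderm cells held most, 3.46 and 3.38 ligands on average.

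Across the epiblast as a whole, *Wnt3* had the highest ratio of *Yap1* cKO to control among the 6 ligands with at least 20 UMIs. Its 176 control and 384 *Yap1* cKO UMIs gave 8.17 (7.005 to 9.47) and 14.8 (13.3 to 16.3) CPM, a ratio of 1.81 (1.51 to 2.17). The mix of epiblast cells differed too: 32.3% (26.7 to 38.3) of control epiblast cells and 61.2% (54.9 to 67.1) of *Yap1* cKO epiblast cells were *Fgf8*-positive, which means at least 40 CPM of *Fgf8*, a growth factor gene of the streak and posterior epiblast. Within *Fgf8*-positive cells *Wnt3* was level, at 21.5 and 21.6 CPM and a ratio of 1.003 (0.826 to 1.22). Within *Fgf8*-low cells 29 and 26 UMIs gave a ratio of 1.40 (0.791 to 2.46). When the *Yap1* cKO strata were weighted as in control, its *Wnt3* level came to 8.73 CPM and the ratio to 1.07. *Fgf8* and *Wnt3* vary together among these cells, so strata cut on *Fgf8* also sort cells by *Wnt3*. The paper lists *Fgf8*, and *Wnt3* itself, among the genes upregulated in the epiblast cluster of these *Yap1* cKO embryos. Another mix of cells and more *Fgf8* per cell therefore cannot be told apart here. The level ratio in *Fgf8*-positive cells held for the pools as a whole: it was 1.34 in Y-bearing cells, at 16.9 and 22.7 CPM, and 0.800 in *Xist*-bearing cells, at 26.6 and 21.3 CPM.

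The same cells were also binned by their own *Fgf8*, which divides the 2 strata further and is not independent of them. *Wnt3* climbed with *Fgf8* in both libraries, from 0.945 control and 0.422 *Yap1* cKO CPM in cells without *Fgf8* to 40.3 (30.9 to 51.5) and 34.8 (29.6 to 40.6) CPM in cells with 320 CPM or more. The intervals of the ratio included 1 in each of the 7 bins. In the low bins they were too wide to show a difference, as with 6 and 1 UMIs in cells without *Fgf8* (0.00971 to 3.68). *Wnt8a* behaved differently at the top. In cells with 320 CPM or more of *Fgf8*, 39 UMIs in 17 control cells gave 24.9 (17.7 to 34.1) CPM and 39 UMIs in 49 *Yap1* cKO cells gave 8.48 (6.03 to 11.6), a ratio of 0.340 (0.213 to 0.544). In the bin from 160 to 320 CPM the *Wnt8a* ratio was 0.898 (0.411 to 2.11). The 3 upper control bins held 18, 19 and 17 cells, and without the highest bin no *Wnt8a* ratio had an interval without 1. The plot of *Wnt3* and *Wnt8a* by the *Fgf8* of the cell shows both.

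**Figure D3:**
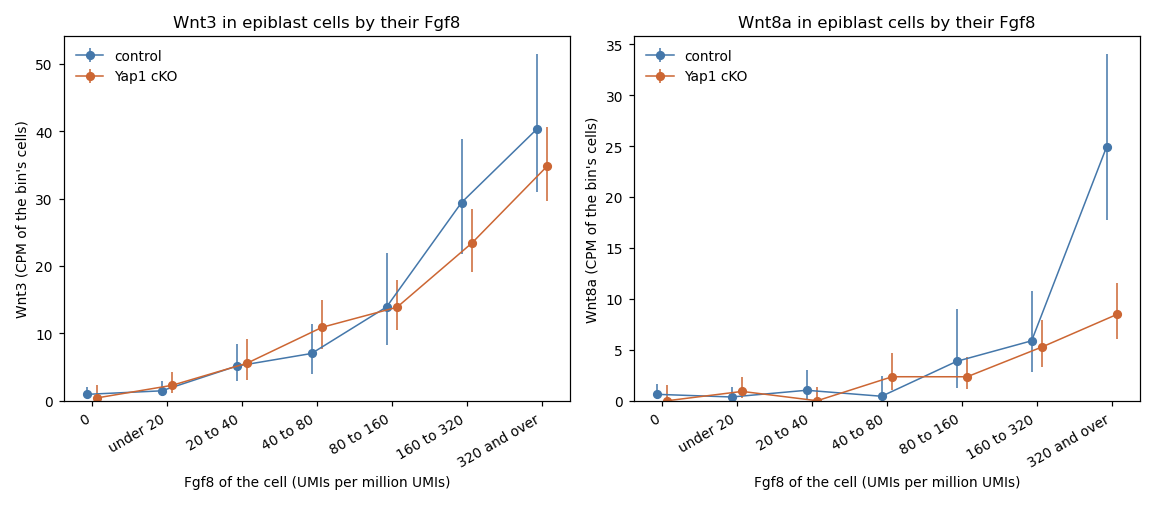
Level of Wnt3 (left) and Wnt8a (right) in epiblast cells (vertical axis, CPM) binned by the Fgf8 of the cell (horizontal axis, CPM), in control (blue) and Yap1 cKO (orange); bars are 95% counting intervals. Wnt3 rises with Fgf8 in both libraries, and Wnt8a has intervals apart only in the highest bin, at 24.9 against 8.48 CPM.

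A ratio past 2-fold, with at least 20 UMIs over both libraries, was counted for the ligands and for all genes. In all epiblast cells, 0 of 6 ligands passed it, against 3.41% of all genes. In *Fgf8*-low epiblast it was 0 of 3 against 3.33%, and in *Fgf8*-positive epiblast 1 of 6 against 3.71%. The 1 was *Wnt2b*, with 17 and 20 UMIs and a ratio of 0.485 (0.241 to 0.985). Under 14 alternative settings this ratio ran from 0.388 to 0.608, so it did not pass 2-fold under all of them. *Wnt8a* in *Fgf8*-positive epiblast had a ratio of 0.599 (0.420 to 0.861). Under the 14 alternative settings it ran from 0.410, with the gate thresholds doubled, to 0.740. The share of these cells with a *Wnt8a* UMI went the other way, at 25.9% in control and 32.7% in *Yap1* cKO, or 15.5% and 21.7% after thinning, and 1 control cell gave 18.2% of the 55 control UMIs. *Wnt5b* in *Fgf8*-low epiblast had a ratio of 1.66 (1.26 to 2.19). The median log2 ratio of the ligands with enough UMIs was 0.22 in all epiblast cells and -0.25 in *Fgf8*-positive epiblast, beside -0.05 for all genes in each.

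In the streak and mesoderm most ligands lay within 2-fold between the libraries, as did most genes. In the primitive streak 0 of 7 ligands passed 2-fold, against 4.92% of all genes, and in nascent mesoderm 0 of 8, against 4.33%. *Wnt3* in the primitive streak had a ratio of 1.29 (1.05 to 1.60) and *Wnt3a* one of 0.542 (0.297 to 0.991), which came to 0.307 with the gate thresholds halved and 0.830 with them doubled. *Wnt2* in nascent mesoderm had a ratio of 0.642 (0.528 to 0.782), while *Wnt3* there had 0.951 (0.816 to 1.11) and *Wnt5a* 0.868 (0.728 to 1.04). In nascent mesoderm the summed epiblast markers stood at 371 CPM in control and 561 in *Yap1* cKO. Those of *Foxf1* and *Hand1* mesoderm stood at 160 and 119 CPM there, and their part in the ratios was not tested. In the *Foxf1* and *Hand1* mesoderm 1 of 7 passed, against 5.01%. That was *Wnt11*, with 19 and 8 UMIs and a ratio of 0.483 (0.183 to 1.16). In blood and endothelial progenitors *Wnt2*, *Wnt3*, *Wnt5a* and *Wnt5b* all had higher *Yap1* cKO levels, with ratios of 1.77 (1.25 to 2.55), 1.91 (1.29 to 2.87), 1.55 (1.03 to 2.34) and 1.68 (1.002 to 2.88). No share of all genes was counted for this gate to set beside them. With the gate thresholds halved the *Wnt3* ratio came to 1.26, and in *Xist*-bearing cells alone *Wnt2* and *Wnt5a* turned direction, to 0.854 and 0.814. The summed *Foxf1* and *Hand1* mesoderm markers moved the same way in these cells, at 318 and 492 CPM, as did those of nascent mesoderm, at 127 and 248 CPM, and their part in the ligand ratios was not tested.

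**Figure D4:**
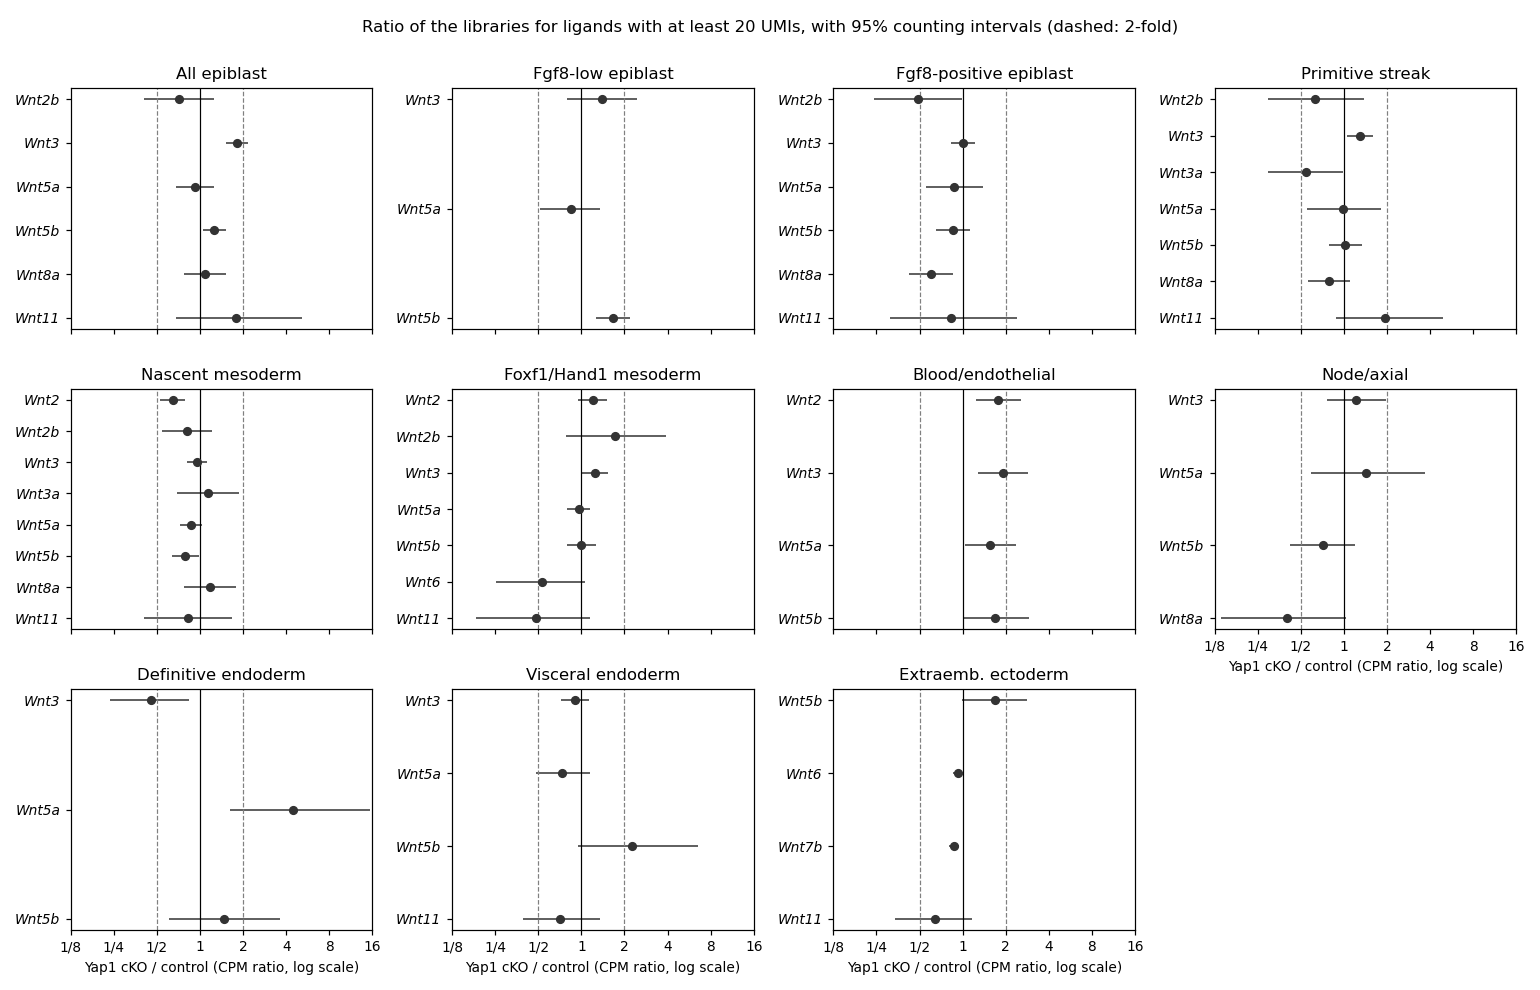
Ratio of Yap1 cKO to control (horizontal axis, log scale) for each ligand with at least 20 UMIs over both libraries, in 1 panel per population; bars are 95% counting intervals and dashed lines mark 2-fold. Most points lie within 2-fold. The share of all genes past 2-fold was not counted for blood and endothelial progenitors, node or definitive endoderm.

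In the 24 definitive endoderm cells of each library, *Wnt3* had 41 and 15 UMIs, a ratio of 0.456 (0.235 to 0.842), and *Wnt5a* 5 and 18 UMIs, a ratio of 4.49 (1.61 to 15.5). The share of all genes past 2-fold was not counted for this gate. With the gate thresholds halved the *Wnt5a* ratio came to 1.17, and with them doubled the *Wnt3* ratio came to 0.697. In these cells the summed markers of primitive streak stood at 814 and 457 CPM, those of anterior visceral endoderm at 1640 and 902 CPM and those of epiblast at 909 and 1531 CPM, and their part in the ratios was not tested. In visceral endoderm 1 of 4 ligands passed 2-fold, against 4.35% of all genes, namely *Wnt5b* with 6 and 40 UMIs and a ratio of 2.25 (0.947 to 6.48). *Wnt3* in this tissue had a ratio of 0.897 (0.717 to 1.13). In extraembryonic ectoderm 0 of 4 passed, against 3.3% of all genes. *Wnt6* had a ratio of 0.922 (0.849 to 1.001) and *Wnt7b* one of 0.867 (0.799 to 0.939).

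The counting intervals do not show how embryos differ. Y-bearing and *Xist*-bearing cells must come from different embryos of a pool, so their levels give a partial view of that spread. The split is also one by sex and merges embryos of the same sex, so sex and embryo cannot be told apart. *Wnt3* in the control primitive streak stood at 60.3 CPM in 19 Y-bearing cells and at 32.5 CPM in 21 *Xist*-bearing cells. In *Yap1* cKO the order was turned, with 36.2 CPM in 6 Y-bearing and 61.6 CPM in 52 *Xist*-bearing cells. The *Wnt3* difference between genotypes in the primitive streak therefore changed direction with the cells chosen, from a ratio of 0.601 in Y-bearing to 1.90 in *Xist*-bearing cells. Over all epiblast cells *Wnt3* was at 5.64 and 11.4 CPM in Y-bearing and *Xist*-bearing control cells and at 17.8 and 13.6 CPM in those of *Yap1* cKO. It was higher in *Yap1* cKO in both comparisons, with ratios of 3.16 and 1.19. The intervals lay apart in Y-bearing cells, at 4.31 to 7.24 and 14.9 to 21.1 CPM. In *Xist*-bearing cells they overlapped, at 9.40 to 13.7 and 11.95 to 15.5 CPM.

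The *Fgf8*-positive share of the epiblast was 29.4% and 35.0% in Y-bearing and *Xist*-bearing control cells, and 76.8% and 56.8% in those of *Yap1* cKO. *Wnt8a* of *Fgf8*-positive epiblast stood at 7.45 (4.67 to 11.3) against 3.81 (2.39 to 5.77) CPM in Y-bearing cells and at 8.86 (6.06 to 12.5) against 5.34 (4.01 to 6.97) CPM in *Xist*-bearing cells, with overlapping intervals in each. *Wnt2* in nascent mesoderm was also lower in *Yap1* cKO in both, at 47.2 against 26.9 CPM and at 43.3 against 30.3 CPM, with 7 Y-bearing *Yap1* cKO cells. In the *Foxf1* and *Hand1* mesoderm *Wnt5a* went from 39.7 to 55.3 CPM in Y-bearing cells and from 67.6 to 47.0 CPM in *Xist*-bearing cells, so that no direction held.

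**Figure D5:**
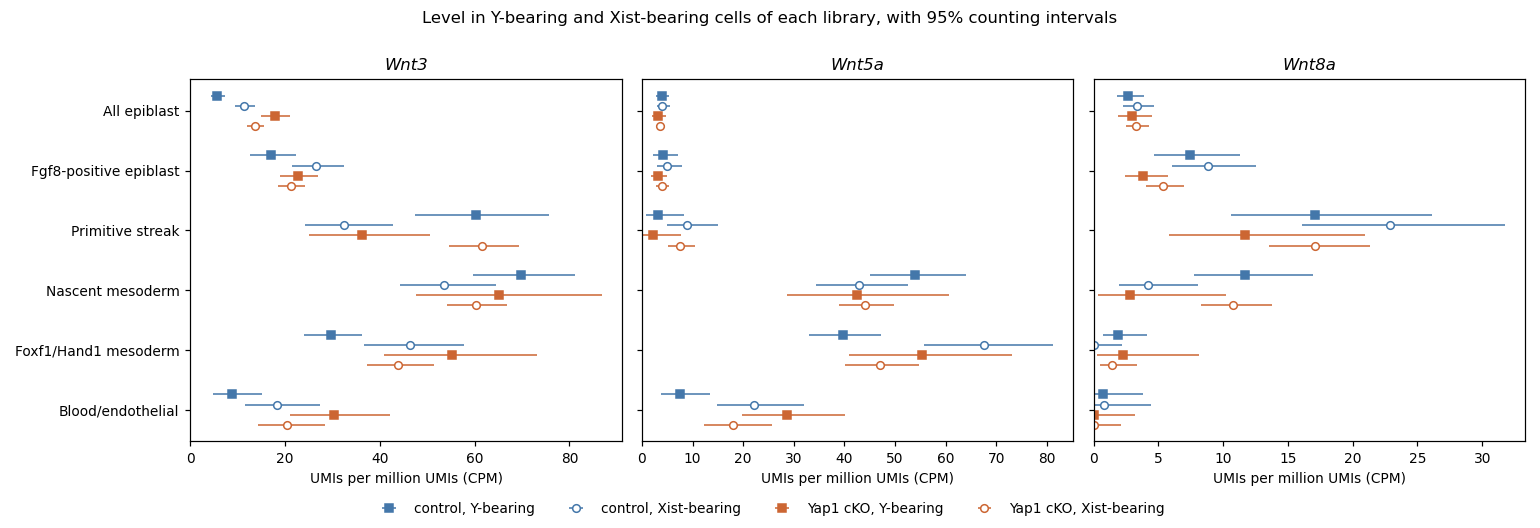
Level of Wnt3, Wnt5a and Wnt8a (horizontal axis, CPM) in Y-bearing (filled squares) and Xist-bearing (open circles) cells of the control (blue) and Yap1 cKO (orange) library, by population; bars are 95% counting intervals. In the primitive streak the 2 control sets of Wnt3 lie apart, at 60.3 and 32.5 CPM.

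Of the other 9 Wnt ligands, *Wnt4* was the only one with 100 or more UMIs, and *Wnt1* had none. *Wnt4*, known from kidney and gonad, stood at 13.5 and 6.54 CPM in the *Foxf1* and *Hand1* mesoderm, a ratio of 0.485 (0.306 to 0.753). Among the genes that release or inactivate the ligands, *Wls*, the carrier that brings Wnt proteins to the cell surface, was highest in the *Foxf1* and *Hand1* mesoderm, as *Wnt5a* was, at 240 and 164 CPM and a ratio of 0.684 (0.625 to 0.750). In all epiblast cells *Wls* and *Porcn*, the enzyme that acylates Wnt proteins, had ratios of 1.37 (1.22 to 1.54) and 1.86 (1.29 to 2.72). In *Fgf8*-positive epiblast alone these were 1.19 (1.01 to 1.40) and 1.33 (0.854 to 2.13).

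Of 18 receptor and co-receptor genes, 17 had enough UMIs in all epiblast cells and 0 passed 2-fold, against 3.41% of all genes. The lowest ratios were those of *Fzd7*, at 0.632 (0.568 to 0.704), and *Fzd3*, at 0.750 (0.671 to 0.838), both Frizzled receptors. The highest were *Fzd10*, at 1.56 (0.951 to 2.62), and *Fzd9*, at 1.24 (0.602 to 2.64). *Ror2*, a receptor for Wnt5a, was highest in the primitive streak in both libraries. In the primitive streak 1 of 15 passed 2-fold in each direction, against 4.92% of all genes in either direction, *Fzd10* at 2.47 (1.31 to 5.06) and *Fzd8* at 0.407 (0.207 to 0.788). *Fzd1* there had a ratio of 0.600 (0.266 to 1.37) and *Lrp5* one of 1.23 (0.970 to 1.56).

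Of 9 genes of the R-spondin axis, which raises Wnt receptor levels at the membrane, 5 had enough UMIs in all epiblast cells and 0 passed 2-fold, against 3.41% of all genes. *Lgr5*, an R-spondin receptor, had a ratio of 1.89 (1.06 to 3.49) and the ligand *Rspo3* one of 1.70 (1.41 to 2.06). The lowest were *Znrf3*, at 0.940 (0.870 to 1.02), and *Lgr4*, at 1.05 (0.942 to 1.18). *Znrf3*, which removes Frizzled from the membrane, was highest in the primitive streak in both libraries, as *Wnt8a* was. Of 11 response genes and antagonists, 2 of 8 passed 2-fold in all epiblast cells, against 3.41% of all genes, *Dkk1* at 3.25 (2.07 to 5.26) and *T* at 3.25 (1.78 to 6.33), both upward, where *T* was also a gene of the streak gate and the lowest were *Sfrp1* at 0.938 (0.839 to 1.05) and *Sp5* at 0.979 (0.722 to 1.33). In *Fgf8*-low epiblast 2 of 6 passed upward and 0 downward, against 3.33%. In *Fgf8*-positive epiblast 1 of 8 passed upward (*Dkk1*) and 1 downward (*Sp5*), against 3.71%. Outside the Cre domain, extraembryonic ectoderm had 3 of 5 upward and 0 downward, against 3.3%. Visceral endoderm had 0 of 10 upward and 1 downward, against 4.35%. Nascent mesoderm had 0 of 10, against 4.33%, and *Foxf1* and *Hand1* mesoderm 3 of 10 upward and 1 downward, against 5.01%. In the primitive streak 5 of 10 passed downward and 0 upward, against 4.92%, with *Dkk1* among the 5 at 0.495 (0.382 to 0.641). The median log2 ratio there was -0.64 beside -0.05 for all genes. The streak gates differed in other markers. Summed anterior visceral endoderm markers, with *Cer1* of this list among them, stood at 301 CPM in control and 39.7 in *Yap1* cKO. Those of nascent mesoderm stood at 101 and 56.9 CPM, and those of the streak itself at 1008 and 1098. Their part in the ratios was not tested.

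Each ligand was also compared with 14184 genes by the correlation of log2(CPM + 1) over 22 points, the 11 populations in both libraries, which share depth and library. *Wnt2* was most like *Bace2* (r = 0.982), *Hoxb3os* (0.977) and *Sowahd* (0.961). *Wnt7b* was most like *Duox2* (0.976), *Rhox4g* (0.973) and *Il5ra* (0.973), and *Wnt6* most like *Il17re* (0.946), *Pglyrp1* (0.939) and *Gm7762* (0.932). The streak ligand *Wnt8a* was most like *Olig1* (0.935), *Alcam* (0.928) and *Smoc2* (0.927), and *Alcam* was also second for *Wnt3a* (0.835), between *Dennd2c* (0.844) and *Dach1* (0.835).

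*Wnt3* was most like *Prtg* (0.919), *Rtl8a* (0.910) and *Slc4a4* (0.897), and *Wnt5b* most like *Gm27239* (0.940), *Gm42439* (0.923) and *Gas1* (0.920). *Wnt5a* was most like *Myl7* (0.895), *Cacna1c* (0.891) and *Rbm24* (0.888). The low ligands had weaker matches, *Wnt2b* with *Pknox2* (0.832), *Slpi* (0.812) and *Cbln1* (0.807) and *Wnt11* with *Ociad1* (0.742), *Tmem243* (0.717) and *Slc18b1* (0.691). Among pairs of ligands the highest r were those of *Wnt6* with *Wnt7b* (0.915), *Wnt2* with *Wnt5a* (0.858) and *Wnt3a* with *Wnt8a* (0.838), and the lowest was that of *Wnt3* with *Wnt7b* (-0.66).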

How the data were processed

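Cells of E7 embryos were captured with the 10x Genomics Single Cell 3' v3.1 kit. The authors counted UMIs with Cell Ranger 7.1.0 on mm10, and the deposited values are raw UMI counts per gene and barcode, without normalization. Barcodes with at least 5000 detected genes and at most 10% mitochondrial UMIs were kept, and doublets called by scrublet (scanpy 1.11.5, 1 control and 4 *Yap1* cKO barcodes) were left out. The thresholds were those the study states for genes and mitochondrial UMIs. Median depth was 75697 and 80559 UMIs per cell.

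Populations were gated on the summed CPM of marker genes in a cell. Gates were applied in a fixed order, with thresholds of 1000 for visceral endoderm (*Ttr*, *Apoa1*, *Afp* and 7 others) and 640 for its anterior part (*Cer1*, *Hhex*, *Lefty1*, *Shisa2*, *Lhx1*). They were 100 for extraembryonic ectoderm (*Elf5*, *Rhox6*, *Rhox9*), 200 for blood, 60 for node, 640 for definitive endoderm (*Sox17*, *Foxa2*, *Trh*), 160 for *Foxf1* and *Hand1* mesoderm, nascent mesoderm (*Mesp1*, *Mesp2*) and epiblast, and 40 for the streak (*T*, *Mixl1*) and *Fgf8*. They were set after marker values, not Wnt values, were seen. Extraembryonic cells with *Pou5f1* or in both extraembryonic gates (8 and 5 cells) and 2 unassigned cells were left out. The ligands, lists and tests were chosen with earlier results of these data known.

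Intervals are exact Poisson (CPM), conditional binomial (ratios) and Clopper-Pearson (shares), at 95%. For a count of 0 the limit given is 3 counts of the number of cells, which limits cells with a UMI, not cells expressing the gene. They take UMIs as independent. Poisson counts were simulated from the sums of all epiblast cells (11488 genes with at least 100 UMIs, 200 of them changed 2-fold, 50 draws). There 95.1% of intervals of unchanged genes held the true ratio and 99.3% of those of changed genes lay off 1. The draws follow the counting model of the intervals. They check the calculation only, and hold no spread between cells or embryos. Cells were called Y-bearing or *Xist*-bearing with at least 2 UMIs of one and none of the other. For shares of co-detection and ligands per cell, cells were thinned to 38000 UMIs, which left out 26 and 48 cells. Genes named outside the 10 ligands are, of each list, the 2 top and the 2 bottom ratios in the population described. Also named are those whose highest population is that of a ligand. For each ligand the 3 most similar genes outside the marker lists are named, and these may still follow a population. Of all these genes, examples are given. Coordinates were matched by Ensembl identifier for 32158 of 32285 features. Alternatives were other scalings (TMM of edgeR 4.0.16 in R 4.3.3 and median of ratios), cell weights, filters, gate thresholds, subtraction of free RNA and subsets of cells.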

Additional observations from a re-analysis of the deposited data

How the results depend on the processing

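The 56 ligand ratios, those of all epiblast cells and of its 2 strata included, were recomputed under up to 14 alternatives. Ratios on fewer than 10 UMIs, or on none in control, were left out, so that *Wnt5a* in definitive endoderm had 12 values. Leaving aside the subsets of Y-bearing and *Xist*-bearing cells, 660 of 669 values stayed within the main counting interval. Several of these settings changed few cells, such as 1 and 4 doublets, and could hardly move a ratio. None of the 17 ratios with an interval without 1 changed direction there. The share of all genes with such an interval was not counted. In Y-bearing cells 25 ratios stayed within the main interval, 18 moved out and 1 was reversed. In *Xist*-bearing cells these were 42, 10 and 3.

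No paired analysis was possible because each genotype has 1 library. Gate thresholds, which were halved and doubled, moved *Wnt5b* in the primitive streak to 0.766 (halved). The cause was not tested for any value here.

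Y-bearing cells alone gave *Wnt3* ratios of 0.437 in *Fgf8*-low epiblast, 1.34 in *Fgf8*-positive epiblast, 3.16 in all epiblast and 0.601 in the primitive streak, the last reversed. They gave 1.23 for *Wnt2b* and 0.635 for *Wnt3a* in nascent mesoderm, 1.39 for *Wnt5a* in *Foxf1* and *Hand1* mesoderm, 1.41 for *Wnt5b* in the primitive streak and 0.975 for *Wnt7b* in extraembryonic ectoderm. *Xist*-bearing cells alone gave *Wnt3* ratios of 0.800 in *Fgf8*-positive epiblast, 1.19 in all epiblast, 1.90 in the primitive streak, 1.12 in nascent mesoderm and, reversed, 0.948 in *Foxf1* and *Hand1* mesoderm. They gave 0.695 for *Wnt5a* in *Foxf1* and *Hand1* mesoderm and 0.827 for *Wnt6* in extraembryonic ectoderm, and reversed *Wnt2* to 0.854 and *Wnt5a* to 0.814 in blood and endothelial progenitors.

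With cells weighted equally, *Wnt2* in *Yap1* cKO nascent mesoderm came to 33.4 CPM and *Wnt6* in control extraembryonic ectoderm to 91.2 CPM. Thinning lowered the shares of cells with a UMI. In nascent mesoderm it gave 50.6% for *Wnt2* in *Yap1* cKO, 31.6% and 31.2% for *Wnt2b* in control and *Yap1* cKO, and 86.0% for *Wnt3* in control. It gave 77.1% for *Wnt5a* in control *Foxf1* and *Hand1* mesoderm and, in the *Yap1* cKO primitive streak, 71.2% for *Wnt5b*, 44.1% for *Wnt8a* and 16.9% for *Wnt11*. In extraembryonic ectoderm it gave 87.2% and 93.5% for *Wnt6* and 92.4% and 95.7% for *Wnt7b*.

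The number of genes past 2-fold followed the UMI minimum. With none, 2117 passed in all epiblast, 1839 in *Fgf8*-low and 2307 in *Fgf8*-positive epiblast, 1938 in the primitive streak, 1995 in nascent mesoderm, 2213 in *Foxf1* and *Hand1* mesoderm, 2042 in visceral endoderm and 1959 in extraembryonic ectoderm. With at least 100 UMIs these were 72, 52, 60, 63, 65, 102, 65 and 53. With the minimum of 20 UMIs they were 510, 451, 496, 556, 509, 576, 540 and 420. Depth limits the ligands with few UMIs, such as *Wnt11* in *Foxf1* and *Hand1* mesoderm, whose ratio on 19 and 8 UMIs could lie between 0.183 and 1.16.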
